A study of Mus musculus with 12 samples.

Results

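The proteasome is the large protease that degrades ubiquitin-tagged proteins, and its subunits are encoded by the Psm genes. The genes described here are those of the probe sets whose single platform symbol begins with Psma, Psmb, Psmc, Psmd, Psme, Psmf or Psmg and a number. The rule took 103 of the 45101 probe sets, which belong to 49 genes. Of these genes, 48 had a probe set that passed the filter on low intensities and were tested among 13732 genes. The exception was Psmb11, the beta subunit of the thymus proteasome, whose array values lay between 0.88 and 6.68, at or near background. Psmc3ip and Psme3ip1 match the rule by symbol only: they are named for proteins that bind a subunit and are not subunits themselves. A single further probe set carries several symbols, a member among them, and was named for none of them.

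The 20S core is a barrel of alpha and beta rings, and the inner beta rings carry the proteolytic sites. Psmb6, Psmb7 and Psmb5 encode the beta1, beta2 and beta5 catalytic subunits of the constitutive core. Interferon-responsive cells, and many blood cells without stimulation, replace them with Psmb9, Psmb10 and Psmb8, which gives the immunoproteasome and changes the peptides available to MHC class I. The 19S regulatory particle caps the core: its base unfolds substrates with the ATPases Psmc1 to Psmc6, and its lid removes ubiquitin through Psmd14. Psme1 is the alpha chain of the PA28 activator, Psme3 forms the nuclear PA28 gamma activator, Psme4 is the PA200 activator and Psmf1 is the inhibitor PI31. Psmg1 to Psmg4 assemble the core, and Psmd5, Psmd9 and Psmd10 assemble the base. FoxO factors have been linked to proteasome subunit expression in other tissues and organisms.

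RNA from sorted mouse bone marrow cells was hybridised to 12 Affymetrix MOE430_2 mouse genome arrays, which form 4 groups of 3. LSK cells are the lineage-negative, Sca-1-positive, Kit-positive fraction that holds the hematopoietic stem cells, and myeloid progenitors (MP) are their committed descendants. All mice carried floxed Foxo1, Foxo3 and Foxo4 alleles. The wild-type groups lacked the Mx-Cre transgene and the FoxO-deficient groups carried it. Mx-Cre is driven by an interferon-inducible promoter, and the labels give neither how it was induced nor the age of the mice. A FoxO effect below is therefore the difference between Cre-positive and Cre-negative mice, and loss of the FoxO genes and presence of Cre cannot be told apart. Mice were pooled, and the amplification was done in triplicate. Whether each array had its own pool of mice is not stated, and the p-values may therefore reflect technical spread alone. Arrays 1 to 3 are wild-type LSK, arrays 4 to 6 FoxO-deficient LSK, arrays 7 to 9 wild-type MP and arrays 10 to 12 FoxO-deficient MP.

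Array 2 stood apart from the others, and values below are from all 12 arrays unless array 2 is said to be left out. Its 3′ to 5′ ratio of the Gapdh control probe sets was 344, against 1.77 to 2.37 on the other 11 arrays. For 17 of the 48 members (35.4%), array 2 lay more than 1 log2 unit from the mean of arrays 1 and 3, 13 of them below it; over all genes the share was 41.8%. No member was that far off on any array of the other 3 groups. The targeted Foxo4 fell from 347, 366 and 479 to 67.2, 93.8 and 100.2 on the LSK arrays and from 349.8, 309 and 332 to 59.1, 59.3 and 61.3 on the MP arrays (adjusted p = 0.00162 and 0.000114), whereas the representative probe sets of Foxo1 and Foxo3 did not pass in either cell type on all arrays. Foxo3 passed in MP once array 2 was left out, in the direction opposite to a loss: it read 1913, 1837 and 1832 on wild-type and 2263, 2414 and 2574 on FoxO-deficient MP arrays, without overlap, a rise of 0.37 ± 0.09 (SE; adjusted p = 0.0404; 0.299 with array 2). Whether these probe sets lie in the deleted exons was not examined. The summed LSK markers lay between 7453 and 8308 on LSK arrays and between 1836 and 2403 on MP arrays. The 5 basophil and mast cell markers summed to 57.5 to 184 on wild-type LSK, 238 to 290 on FoxO-deficient LSK, 554 to 642 on wild-type MP and 926 to 947 on FoxO-deficient MP arrays, with Mcpt8 passing in FoxO-deficient LSK. In the fit without array 2, Mcpt8, Cpa3, Ms4a2 and Hdc passed as higher in FoxO-deficient LSK, and Mcpt8 and Fcer1a in FoxO-deficient MP. The 5 neutrophil markers measured summed to 3052 to 4649, 4645 to 5004, 2613 to 2773 and 3656 to 3994 in the same order of groups, with Camp passing as higher in both FoxO comparisons, joined by S100a8 in both with array 2 left out. Of the 9 myeloid progenitor markers measured, 0 passed in either FoxO comparison on all arrays. With array 2 left out, Prtn3 and Ms4a3 passed as higher and Gata1 and Klf1 as lower in FoxO-deficient MP. In the same fit Ctsg passed as higher in FoxO-deficient LSK. Among the LSK markers, Tek passed as lower in both FoxO comparisons on all arrays. With array 2 left out, Esam passed as lower and Meis1 as higher in FoxO-deficient MP. The B cell marker Cd79b and the T and NK cell marker Nkg7 also passed as higher there. Ighm, a B cell marker, passed as higher in FoxO-deficient LSK in that fit. The part of these markers in the results below was not tested.

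Promoter windows from RefSeq (assembly GRCm38.p6, 250 bases before to 50 after the start) were found for 41 member genes, in 44 entries. The windows below, read 5′ to 3′ along the gene, belong to 4 members on which the results turn. Psmb9 and Psmb6 are the immunoproteasome and constitutive beta1 subunits, which differed between FoxO-deficient and wild-type MP with array 2 left out. Psme1 is the member that fell from LSK to MP, and Psmg3 is the member that rose most. Capitals mark the only match to the 7 motifs searched in each window.
Psmb9, chr17:34187281-34187580, minus strand, CCAAT box on the opposite strand: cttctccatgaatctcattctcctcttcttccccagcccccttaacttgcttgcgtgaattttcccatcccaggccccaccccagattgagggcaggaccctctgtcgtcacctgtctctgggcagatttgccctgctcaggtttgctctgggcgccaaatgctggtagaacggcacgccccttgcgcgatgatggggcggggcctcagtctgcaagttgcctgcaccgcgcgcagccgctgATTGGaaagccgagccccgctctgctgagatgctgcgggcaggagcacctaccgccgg
Psmb6, chr11:70525107-70525406, plus strand, TGACNNNGC: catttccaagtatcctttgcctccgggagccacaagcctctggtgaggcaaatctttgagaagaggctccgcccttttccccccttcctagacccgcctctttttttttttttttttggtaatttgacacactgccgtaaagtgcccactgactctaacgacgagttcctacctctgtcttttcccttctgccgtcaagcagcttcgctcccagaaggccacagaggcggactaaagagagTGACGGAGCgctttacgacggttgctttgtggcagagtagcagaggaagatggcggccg
Psme1, chr14:55578244-55578543, plus strand, response element on the opposite strand: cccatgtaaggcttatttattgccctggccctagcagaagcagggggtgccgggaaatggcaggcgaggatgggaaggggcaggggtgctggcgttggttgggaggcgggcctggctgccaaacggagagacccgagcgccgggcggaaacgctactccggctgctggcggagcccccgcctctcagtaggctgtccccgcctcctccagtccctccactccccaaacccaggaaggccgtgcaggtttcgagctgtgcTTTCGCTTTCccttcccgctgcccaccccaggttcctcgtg
Psmg3, chr5:139826845-139827144, minus strand, CCGGAAG: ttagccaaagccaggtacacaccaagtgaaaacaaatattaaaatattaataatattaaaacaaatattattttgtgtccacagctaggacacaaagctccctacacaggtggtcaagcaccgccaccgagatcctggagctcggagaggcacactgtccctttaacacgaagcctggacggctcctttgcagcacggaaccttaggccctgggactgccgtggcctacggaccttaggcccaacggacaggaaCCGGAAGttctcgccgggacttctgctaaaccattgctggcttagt

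Motifs were searched on both strands of each window. CCGGAAG, the core bound by ETS family factors such as GABP, stood in 17 of the 44 member windows (38.6%) and in 8.86% of all 32851 windows of this length. The interferon-stimulated response element, searched as GAAA, 2 bases of any kind and GAAA, stood in 5 member windows (11.4%, against 3.44%), which belong to Psmb3, Psmd4, Psmd9, Psmg4 and Psme1. The antioxidant response core TGACNNNGC, bound by the Nfe2l1 factor that drives proteasome genes, stood in 6 member windows (13.6%, against 12.4%), among them those of Psmb5 and Psmb6. CCAAT stood in 16 (36.4%, against 37.4%), the STAT-type TTCNNNGAA in 3 (6.82%, against 8.30%) and the NF-kB-type GGG, 2 bases of any kind and TTTCC in 1 (2.27%, against 1.63%). The forkhead core GTAAACA stood in 0 member windows, against 3.65% of all windows. The interferon and STAT patterns can overlap by their shared letters. The Psmb9 window shares 275 bases with that of Tap1, the peptide transporter gene that starts from the other strand. A match is a description of these letters and not of binding.

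**Figure D1:**
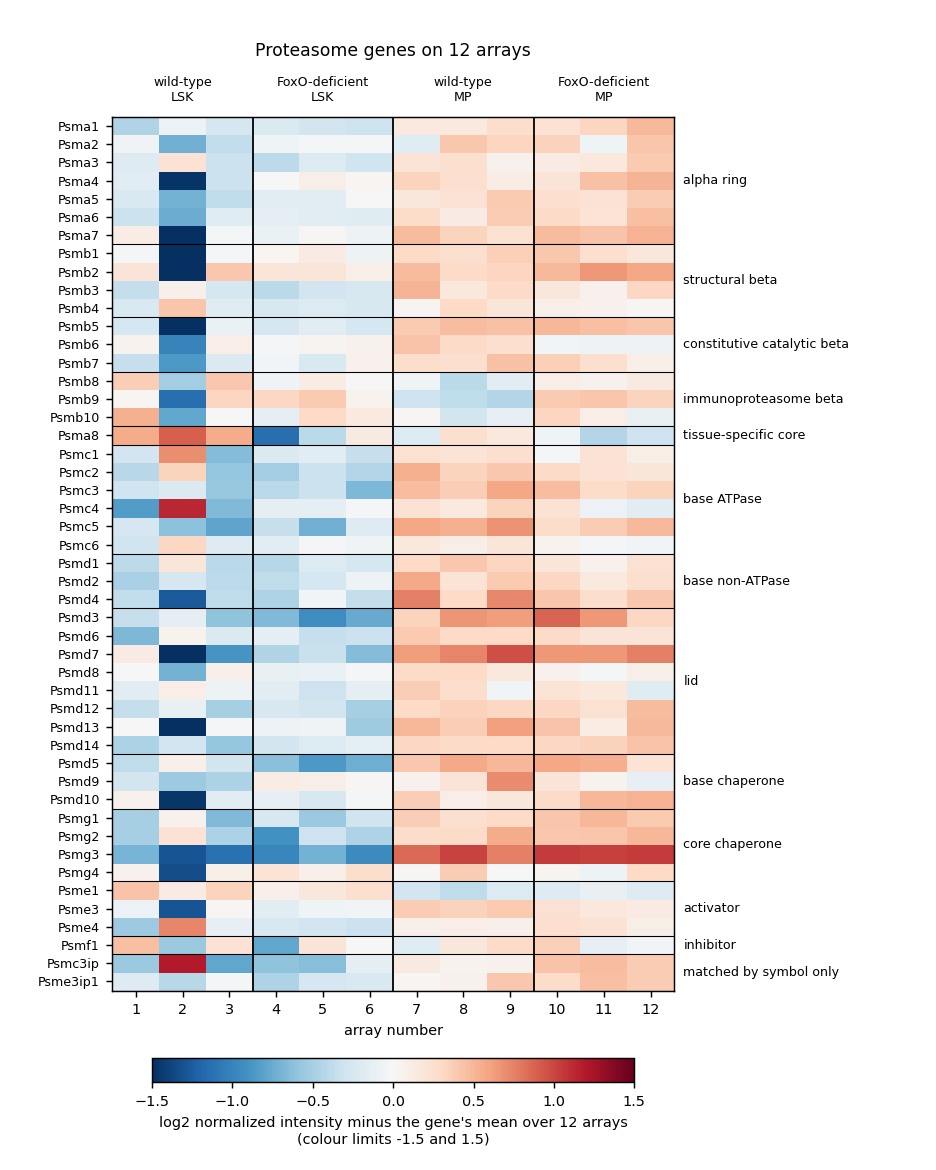
Each row is a member gene and each column an array; colour gives the log2 normalized intensity of the gene's representative probe set minus its mean over 12 arrays, with white at the mean. Most rows are blue on the 6 LSK arrays and red on the 6 MP arrays, the rows of the immunoproteasome, Psme1 and Psma8 are not, and array 2 departs from arrays 1 and 3 in many rows.

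The 48 representative probe sets were above the background limit on all 12 arrays, with normalized intensities between 21.4 and 2255. The median standard error of a group difference was 0.21 log2 units over the members and 0.36 over all genes. With array 2 left out it was 0.12 and 0.22 for comparisons between intact groups.

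Most proteasome genes were higher in MP than in LSK cells of wild-type mice, and the immunoproteasome subunits, PA28 alpha (Psme1) and the alpha subunit Psma8 had lower means. Of the 48 members, 17 rose and 1 fell, against 9.95% and 11.5% of all genes in each direction (limma, adjusted p under 0.05, all 12 arrays). The members' median log2 difference was 0.63, against 0.02 over all genes. With array 2 left out, 32 rose and 3 fell, where 17.8% and 16.1% of all genes did, and the medians were 0.51 and 0.03. Leaving out array 8 gave 11 called members and leaving out array 9 gave 8, and a fit to the 6 arrays of this comparison alone, array 2 included, gave 2. The shares of all genes called in these fits are not given here. In bulk RNA, more cells with high expression and more RNA in each cell cannot be told apart.

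In the constitutive core, all 14 measured alpha and beta genes had higher means in wild-type MP, by 0.18 to 1.45 log2 units; 4 passed on all arrays and 10 with array 2 left out. Psmb5, the chymotrypsin-like subunit, stood at 486, 189 and 546 on wild-type LSK arrays and 765, 805 and 794 on wild-type MP arrays. The groups did not overlap, and array 2 was the lowest. Psmb5 rose by 1.10 ± 0.33 (± is the standard error of the fit to 3 arrays per group, adjusted p = 0.0422) in log2 units, and by 0.60 ± 0.09 (adjusted p = 0.00134) without array 2. The Psmb5 call was lost in 12 of 24 alternative settings. Psmb7, the trypsin-like subunit, moved from 668, 468 and 731 to 1024, 1002 and 1152 and rose by 0.79 ± 0.19 (adjusted p = 0.0167). Psma5, of the alpha ring, went from 935, 667 and 841 to 1234, 1270.2 and 1439.6, again without overlap, and rose by 0.70 ± 0.16 (adjusted p = 0.0139). Psma6 was the other alpha gene that passed, at 0.68 ± 0.17 (adjusted p = 0.0212), and Psma1, Psma3 and Psma4 passed once array 2 was left out. Psmb2 shows what array 2 does to such a difference: it stood at 354, 21.4 and 409 on wild-type LSK and 431, 376 and 388 on wild-type MP arrays, so its log2 difference was 1.45 ± 0.90 (adjusted p = 0.293) with array 2 and 0.06 ± 0.11 (adjusted p = 0.71) without it.

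In the regulatory particle, all 17 measured genes had higher means in wild-type MP, by 0.20 to 1.76, and 9 passed on all arrays and 14 without array 2. Psmc5, an ATPase of the base, rose from 103, 80.2 and 70.7 to 184, 177 and 195, a difference of 1.15 ± 0.19 (adjusted p = 0.00234) or 2.22-fold. Psmc3, another ATPase, rose from 1025, 1083 and 849 to 1739, 1626 and 1888, by 0.83 ± 0.16 (adjusted p = 0.00555). Neither ATPase overlapped between the groups, and both passed with array 2 and without it. Psmd4, a ubiquitin receptor of the base, rose from 246, 133 and 245 to 538, 390.4 and 523, by 1.26 ± 0.26 (adjusted p = 0.00715). Psmd2, the large scaffold of the base, rose by 0.77 ± 0.16 (adjusted p = 0.00701). The lid genes that passed were Psmd3, Psmd6, Psmd7, Psmd12 and Psmd14, with or without array 2. Psmd14, the deubiquitinase of the lid, went from 690.0, 785 and 639 to 1186, 1172 and 1183, with MP arrays within a narrow band, and rose by 0.75 ± 0.13 (adjusted p = 0.0036). Psmd7, its partner in the lid, rose from 143, 29 and 71.3 to 203, 219 and 257, by 1.76 ± 0.45 (adjusted p = 0.0212) with array 2 and 1.16 ± 0.26 (adjusted p = 0.00964) without it. Psmd3, a lid scaffold, rose by 0.91 ± 0.20 (adjusted p = 0.00987), Psmd12 by 0.64 ± 0.16 (adjusted p = 0.0168) and Psmd6 by 0.61 ± 0.19 (adjusted p = 0.0441). The Psmd6 call was lost in 16 of 24 alternative settings. With array 2 left out all 6 ATPases passed, where 2 did on all arrays, and Psmc2, Psmc4, Psmc1 and Psmc6 joined at 0.92, 0.97, 0.69 and 0.39.

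The assembly chaperones held the largest difference of the family. Psmg3, which helps to build the alpha ring, stood at 37.2, 24.6 and 27.8 on wild-type LSK arrays and at 109, 122 and 102 on wild-type MP arrays. The lowest MP array was thus far above the highest LSK array, and Psmg3 rose by 1.91 ± 0.18 (adjusted p = 8.89e-05), or 3.76-fold. Psmg1, which acts in a pair with Psmg2, rose from 205, 304 and 183 to 373, 342 and 356, by 0.67 ± 0.20 (adjusted p = 0.0389). The Psmg1 call was lost in 14 of 24 alternative settings. Psmg2 itself differed by 0.62 ± 0.23 (adjusted p = 0.0864), and passed without array 2 at 0.85 ± 0.17 (adjusted p = 0.00621). Psmg4, the partner of Psmg3, gave 139.7, 53.2 and 142 on wild-type LSK and 136, 174 and 134 on wild-type MP arrays, which overlap, with a log2 difference of 0.53 ± 0.34 (adjusted p = 0.312) on all arrays and 0.06 ± 0.16 (adjusted p = 0.808) without array 2. Of the base chaperones, Psmd5 rose by 0.68 ± 0.18 (adjusted p = 0.0211) and Psmd9 by 0.75 ± 0.19 (adjusted p = 0.0203), while Psmd10 differed by 0.73 ± 0.34 (adjusted p = 0.158), or 0.26 ± 0.13 (adjusted p = 0.179) without array 2.

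Psme1, the PA28 alpha chain induced by interferon, was the member that fell. It stood at 1401, 1129 and 1305 on wild-type LSK and 853, 798 and 904 on wild-type MP arrays, with no overlap, and was 1.5-fold lower in MP (log2 difference -0.58 ± 0.14, adjusted p = 0.0165). The other activators went the opposite way without array 2: Psme3 by 0.41 ± 0.09 (adjusted p = 0.00891) and Psme4 by 0.42 ± 0.13 (adjusted p = 0.0361). With array 2 included they did not pass, at 0.83 ± 0.30 (adjusted p = 0.0761) and 0.06 ± 0.27 (adjusted p = 0.9). Another Psme3 probe set lay higher in wild-type MP without overlap, array 2 included. It read 164, 201 and 152 on wild-type LSK and 382, 330 and 362 on wild-type MP arrays. The inhibitor Psmf1 differed by 0.05 ± 0.33 (adjusted p = 0.934), and by -0.25 ± 0.30 (adjusted p = 0.581) without array 2. Psma8, the testis-specific alpha subunit, lay lower in MP without overlap and without passing, at -0.60 ± 0.29 (adjusted p = 0.182) and, with array 2 left out, -0.49 ± 0.32 (adjusted p = 0.294).

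**Figure D2:**
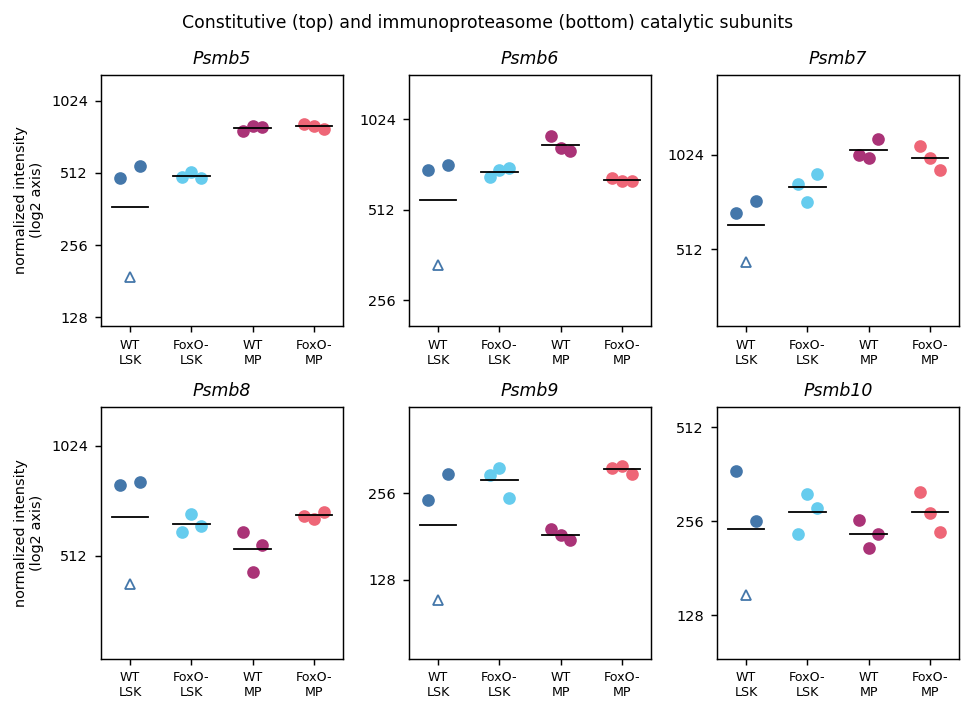
Normalized intensity (log2 axis) of the 3 constitutive and the 3 immunoproteasome catalytic subunits in the 4 groups; circles are arrays, the open triangle is array 2 and bars are group means of log2 values. Psmb5 and Psmb7 lie higher in MP than in LSK in both genotypes, whereas Psmb9 is lowest on the wild-type MP arrays if array 2 is set aside.

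The immunoproteasome subunits did not share the rise. Psmb8, the immunoproteasome beta5, stood at 798, 429 and 814 on wild-type LSK and 595, 464 and 548 on wild-type MP arrays. Array 2 was the lowest of these 6, and arrays 1 and 3 were above all 3 MP arrays. Its log2 difference was -0.29 ± 0.24 (adjusted p = 0.431) on all arrays, and it fell by 0.59 ± 0.12 (adjusted p = 0.00565) without array 2. Psmb9, the immunoproteasome beta1, stood at 242, 109 and 298 and 191, 182 and 175 in the same groups, in the same arrangement. Its difference was -0.12 ± 0.32 (adjusted p = 0.832) on all arrays, and it fell by 0.56 ± 0.13 (adjusted p = 0.0134) without array 2. Psmb10, the immunoproteasome beta2, was at 370.5, 149 and 257 and 259, 211 and 234, which overlap, and gave -0.05 ± 0.30 (adjusted p = 0.929) with and -0.40 ± 0.21 (adjusted p = 0.179) without array 2. These signs rest on the scaling: with arrays centred on their medians in place of quantile normalization, the differences of Psmb8, Psmb9 and Psmb10 were 0.06, 0.15 and 0.25 on 12 arrays, and -0.19, -0.26 and -0.07, none passing, with array 2 also left out. Psme1 fell by 0.26 under that centring (adjusted p = 0.252) and did not pass. Median centring moved the median of all genes from 0.02 to 0.19 in this comparison and from 0.11 to 0.31 in the FoxO-deficient one. It also turned the split of higher and lower calls over all genes from 1367 and 1575 to 2177 and 1210 in wild type, and from 1406 and 1289 to 2400 and 1064 in FoxO-deficient cells. Under it 30 members rose and 0 fell in wild type, with a median of 0.96.

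The same comparison between FoxO-deficient cells uses none of the same arrays. Here 11 members rose and 0 fell, against 10.2% and 9.39% of all genes, with a median of 0.47 (0.11 over all genes). The count was 32 up and 1 down with array 2 left out, where 21.5% and 15.7% of all genes passed; array 2 belongs to neither group here and enters through the shared estimate of spread and the normalization. Leaving out array 11 gave 7 and leaving out array 12 gave 5, and a fit to the 6 arrays of this comparison alone gave 29. Shares of all genes are not given for these fits. Psmg3 again rose most, from 30.7, 37 and 31.1 on FoxO-deficient LSK to 125, 123 and 125 on FoxO-deficient MP arrays. That is 1.92 ± 0.18 (adjusted p = 6.95e-05), or 3.79-fold, and the 3 MP arrays were nearly equal. Psmd3 rose from 91.4, 75.9 and 86.1 to 267, 227 and 181, by 1.40 ± 0.20 (adjusted p = 0.00093), or 2.64-fold. Psmd5 rose from 275, 232 and 255 to 631, 614 and 488, by 1.18 ± 0.18 (adjusted p = 0.00124), or 2.27-fold. Both scaffold and chaperone were without overlap between the cell types.

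The other members that passed in FoxO-deficient cells were Psma1 of the alpha ring, the ATPases Psmc3 and Psmc5, the lid genes Psmd12 and Psmd14, the core chaperones Psmg1 and Psmg2, and Psme3ip1. Psma1 rose from 661, 637 and 622 to 894, 967 and 1084, by 0.61 ± 0.15 (adjusted p = 0.0167). Psmg2 rose from 177, 268 and 241 to 442, 444 and 471, by 1.00 ± 0.23 (adjusted p = 0.0134). Psmc3 rose by 0.82 ± 0.16 (adjusted p = 0.00601), Psmc5 by 0.80 ± 0.19 (adjusted p = 0.0156), Psmd12 by 0.68 ± 0.16 (adjusted p = 0.0136), Psmd14 by 0.58 ± 0.13 (adjusted p = 0.0143), Psmg1 by 0.80 ± 0.20 (adjusted p = 0.0182) and Psme3ip1 by 0.68 ± 0.17 (adjusted p = 0.0179). Psmb5 stood at 490.4, 517 and 486 and 822, 800.5 and 780.0, a separated pair of groups that differed by 0.69 ± 0.33 (adjusted p = 0.188) on all arrays and 0.68 ± 0.08 (adjusted p = 0.000346) without array 2. Psmb7 differed by 0.30 ± 0.19 (adjusted p = 0.316). Psmb6 was the constitutive core gene that did not lie higher in FoxO-deficient MP, with 657, 694 and 702 on LSK and 651, 639 and 639 on MP arrays and a log2 difference of -0.09 ± 0.26 (adjusted p = 0.855). The immunoproteasome genes were almost level, with differences of 0.08, 0.13 and 0.00 for Psmb8, Psmb9 and Psmb10. Psme1 was again lower in MP, at 1096, 1168 and 1233 and 909.8, 959 and 909, with -0.33 ± 0.14 (adjusted p = 0.135) on all arrays and -0.33 ± 0.09 (adjusted p = 0.0189) without array 2; under median centring it was 0.04.

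**Figure D3:**
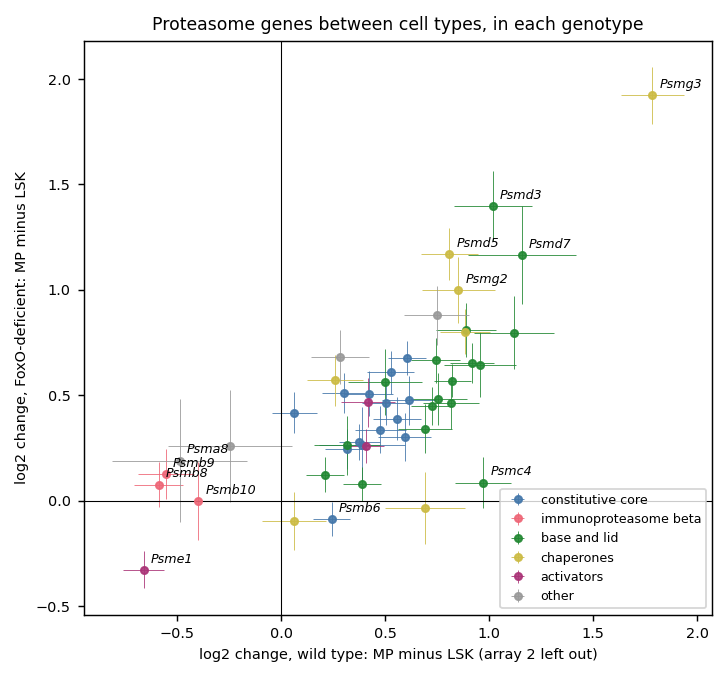
Log2 difference between MP and LSK in wild-type cells (horizontal) and in FoxO-deficient cells (vertical) for the 48 members, with array 2 left out; bars are standard errors and colours are classes. Psmg3 lies at 1.78 and 1.92, base and lid genes are above 0 on both axes, and the immunoproteasome genes, Psme1, Psma8 and Psmf1 lie left of 0.

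Of the 17 members that rose in wild type and the 11 in FoxO-deficient cells, 8 were shared, which is 47.1% and 72.7% of each list. They were Psmc3, Psmc5, Psmd3, Psmd12, Psmd14, Psmd5, Psmg1 and Psmg3. With array 2 left out the 2 lists held 32 each and shared 27 (84.4%). The sign was the same for 41 of 48 members, and the correlation across members was 0.61 (0.74 without array 2), a description across genes of 1 complex on the same kind of arrays. Overlap, sign and correlation are not given over all genes, so none of them is shown to be particular to the members. By groups that do not overlap, 31 members lay higher and 2 lower in wild-type MP, against 18.2% and 17.6% of all genes, and 35 higher and 2 lower in FoxO-deficient MP, against 30% and 22.4%. The counts in wild type without array 2 were 39 and 4, against 29.5% and 26.2%, and the 2 added lower members were Psmb8 and Psmb9. On all arrays the 2 that lay lower were Psma8 and Psme1 in wild type, and Psmb6 and Psme1 in FoxO-deficient cells.

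The switch between constitutive and immunoproteasome subunits was also examined within each array, as the log2 intensity of the immunoproteasome subunit minus that of the subunit it replaces. A scaling of the whole array cancels in this difference, but the values used were quantile normalized, and that adjustment depends on intensity and need not cancel. The test was not repeated under another normalization. Only the change of the difference between groups is read. An exact stratified permutation test, two-sided, was run on 6 changes (3 pairs, each by cell type and by genotype), and the smallest p it allows is 0.005. Psmb8 relative to Psmb5 was lower in MP than in LSK by 1.00 on average (exact p = 0.005, adjusted over the 6 tests 0.02), with -1.39 in wild-type and -0.61 in FoxO-deficient cells. Psmb10 relative to Psmb7 was lower in MP by 0.57 (exact p = 0.01, adjusted 0.02). It gave -0.84 without overlap in wild-type and -0.30 with overlap in FoxO-deficient cells. Psmb9 relative to Psmb6 averaged -0.25 by cell type (exact p = 0.15, adjusted 0.225), which joins opposite changes: it was lower in MP of wild type (-0.72) and higher in MP of FoxO-deficient cells (0.22), without overlap in either genotype. By genotype it was 0.67 higher in FoxO-deficient cells (exact p = 0.01, adjusted 0.02), by 0.20 with overlap in LSK and 1.14 without overlap in MP. Psmb8 relative to Psmb5 and Psmb10 relative to Psmb7 averaged -0.10 and 0.04 by genotype (exact p = 0.57 and 0.82, adjusted 0.684 and 0.82). These averages also join opposite signs. Psmb8 relative to Psmb5 was lower in FoxO-deficient LSK (-0.49) and higher in FoxO-deficient MP (0.29), without overlap in either cell type, and Psmb10 relative to Psmb7 gave -0.23 with overlap in LSK and 0.31 without overlap in MP. The difference between these strata was not tested. Without array 2 the first 2 cell type changes were -0.91 and -0.65 (both adjusted p = 0.03, exact test). The Psmb9 change by genotype was then 0.64 (exact p = 0.025, adjusted 0.05), which is not under 0.05.

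In the FoxO comparison of MP, on all arrays, 0 of the 48 members passed, against 1.84% of all genes, and 1 had an unadjusted p under 0.05 (limma). At that unadjusted threshold the share of all genes is not given here. The members' median was -0.02, against 0.04 over all genes. With array 2 left out, which belongs to neither group here and enters through the shared spread and the normalization, Psmb9 rose and Psmb6 fell, where 5.05% of all genes rose and 3.39% fell.

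Psmb9 stood at 191, 182 and 175 on wild-type MP and 312, 318 and 298 on FoxO-deficient MP arrays. The FoxO-deficient arrays were all above the wild-type ones and within the range of the FoxO-deficient LSK arrays or just above it (296, 312 and 246), and the highest wild-type LSK array lay barely below the lowest of them. Its log2 difference was 0.76 ± 0.32 (adjusted p = 0.343) on all arrays and 0.76 ± 0.12 (adjusted p = 0.0076) without array 2, or 1.69-fold. Psmb6, which Psmb9 replaces, stood at 901, 820.4 and 801 on wild-type MP and 651, 639 and 639 on FoxO-deficient MP arrays, again without overlap and with little spread in the second group. It differed by -0.39 ± 0.26 (adjusted p = 0.639) on all arrays and by -0.38 ± 0.08 (adjusted p = 0.0249) without array 2, which is 1.3-fold lower; with median centring and array 2 left out Psmb6 missed the threshold (-0.31, adjusted p = 0.106) and Psmb9 kept it (0.91, adjusted p = 0.00952). The remaining immunoproteasome genes also lay higher in FoxO-deficient MP. Psmb8 went from 595, 464 and 548 to 659, 645 and 676, without overlap (0.31 ± 0.24, adjusted p = 0.704), and Psmb10 from 259, 211 and 234 to 319, 273 and 236, with overlap (0.23 ± 0.30, adjusted p = 0.874). The other constitutive subunits, Psmb5 and Psmb7, gave 0.02 ± 0.33 (adjusted p = 0.994) and -0.08 ± 0.19 (adjusted p = 0.946). The PA28 gene Psme1 lay slightly higher, at 0.12 ± 0.14 (adjusted p = 0.847), Psme3 slightly lower, at -0.20 ± 0.30 (adjusted p = 0.893), and Psme4 gave 0.10 ± 0.27 (adjusted p = 0.958).

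In the regulatory particle 0 of 17 genes passed in FoxO-deficient MP, and most means were slightly lower than in wild type. All 6 base ATPases had lower means than in wild type, with a median of -0.17 and a lowest adjusted p of 0.754 (0.259 without array 2). The 3 non-ATPase base genes were also lower, and so were 5 of the 8 lid genes, so that 3 of 17 genes of the particle had a positive difference, where 53.8% of all genes did. The range over the particle was -0.25 (Psmc4) to 0.07 (Psmd3). Outside it, the base chaperone Psmd9 gave -0.28 ± 0.19 (adjusted p = 0.646) and Psmc3ip, a meiotic recombination factor, gave 0.34 ± 0.43 (adjusted p = 0.865). All 7 alpha ring genes had small positive differences (0.02 to 0.16), but 3 of 7 did under centring on the 75th percentile. Groups did not overlap for 8 members that lay higher in FoxO-deficient MP and 8 that lay lower, against 18.2% and 12.6% of all genes. The higher ones were Psmb2, Psmb8, Psmb9, Psmd14, Psme1, Psmg1, Psmg3 and Psmc3ip. The lower ones were Psmb6, Psmc2, Psmc5, Psmc6, Psmd1, Psmd6, Psmd8 and Psme3. Both lists rest on the representative probe sets. Another Psmd6 probe set went the other way without overlap. It read 502, 496 and 473 on wild-type and 654, 597 and 663 on FoxO-deficient MP arrays. Another Psme3 one read 382, 330 and 362 and 334, 365 and 394 there, with overlap, and another Psmc2 one overlapped too. Another Psmc6 one lay lower without overlap, at 171, 158 and 167 and 139, 156 and 157.

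**Figure D4:**
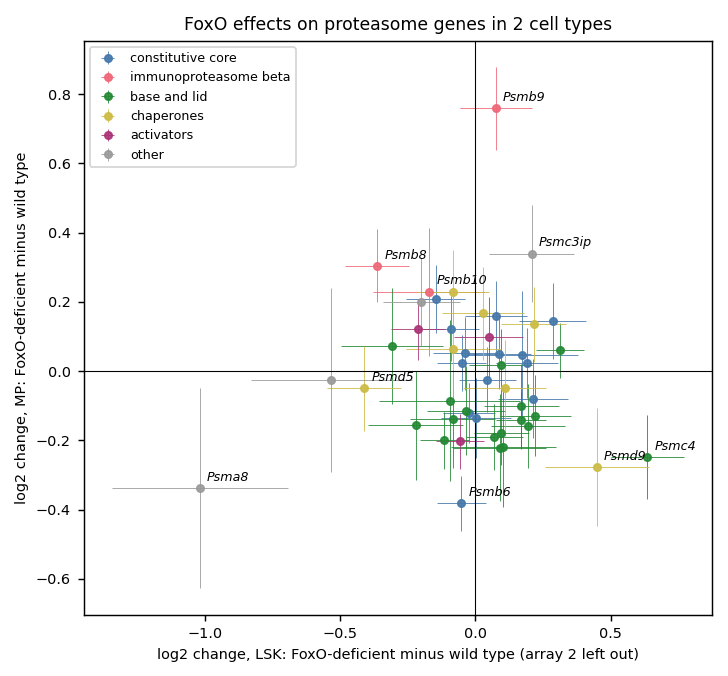
Log2 difference between FoxO-deficient and wild-type cells in LSK (horizontal) and MP (vertical) for the 48 members, with array 2 left out; bars are standard errors and colours are classes. Most members lie near 0 on both axes; Psmb9 stands at 0.76 and Psmb6 at -0.38 in MP, and Psma8 at -1.02 and Psmc4 at 0.64 in LSK.

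In LSK cells 0 of the 48 members passed in the FoxO comparison, with array 2 or without it, where 0.269% and 0.903% of all genes did. An unadjusted p under 0.05 (limma) was seen for 4 and 7 members. The share of all genes at this unadjusted threshold is not given here, so no excess is shown. The median difference was 0.07 with array 2 and 0.04 without it (-0.04 and -0.01 over all genes). Psma8, which stands in for Psma7 in spermatocytes, had the lowest adjusted p on all arrays. It stood at 115, 146 and 116 on wild-type and 35.9, 59.5 and 86.3 on FoxO-deficient LSK arrays, with no overlap and a wide spread in the second group. Its difference was -1.13 ± 0.29 (adjusted p = 0.196). Psmc4, an ATPase of the base, had the lowest adjusted p without array 2. It stood at 318, 1240.3 and 358 on wild-type and 512, 511 and 559 on FoxO-deficient LSK arrays, so that array 2 was the highest and arrays 1 and 3 the lowest of the 6. Its difference was 0.02 ± 0.43 (adjusted p = 0.989) with array 2 and 0.64 ± 0.13 (adjusted p = 0.072) without it. A second Psmc4 probe set read 320, 391 and 248 on wild-type and 342, 355 and 327 on FoxO-deficient LSK arrays, which overlap. Psmd5 went from 325, 447 and 349 to 275, 232 and 255 without overlap, a difference of -0.55 ± 0.18 (adjusted p = 0.299). The lid gene Psmd3 differed by -0.42 ± 0.20 (adjusted p = 0.458). The largest positive values on all arrays, those of Psmb2, Psma7 and Psma4 (1.24, 0.71 and 0.70), became -0.15, -0.09 and 0.29 without array 2. Psmb8 differed by -0.06 ± 0.24 (adjusted p = 0.92) with and -0.36 ± 0.12 (adjusted p = 0.196) without array 2. Groups did not overlap for 4 members that lay higher (Psma4, Psma5, Psmd9 and Psmd14) and 3 that lay lower (Psma8, Psmd3 and Psmd5), against 7.77% and 9.06% of all genes. Once array 2 was left out, 7 lay higher and 10 lower, against 16.1% and 17.6%.

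**Figure D5:**
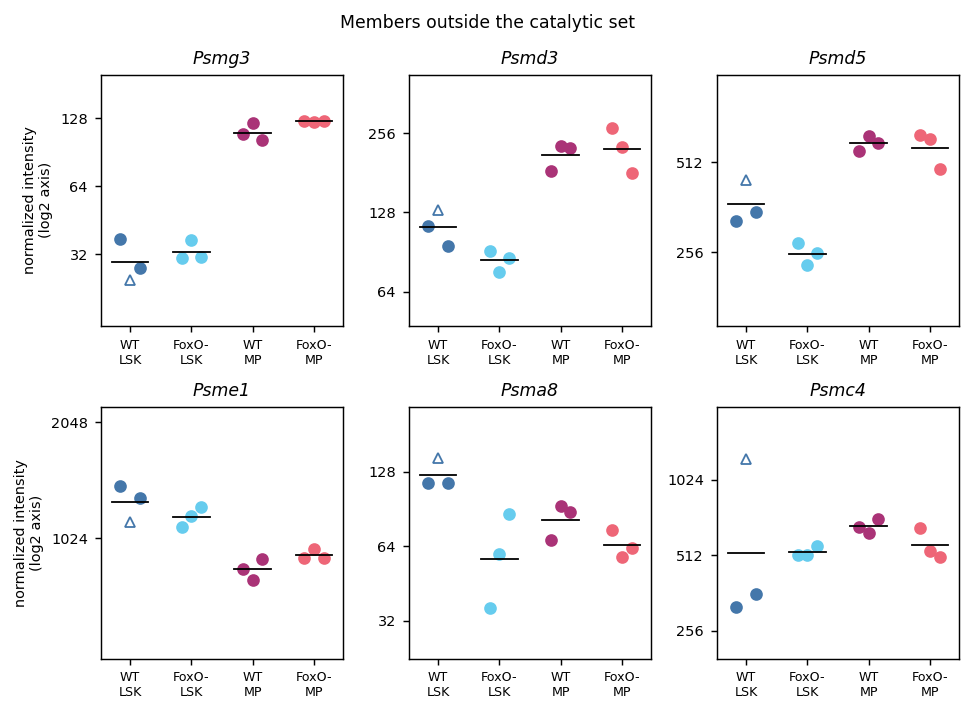
Normalized intensity (log2 axis) of 6 members outside the catalytic set in the 4 groups; circles are arrays, the open triangle is array 2 and bars are group means of log2 values. Psmg3 lies between 24.6 and 37.2 on LSK and between 102 and 125 on MP arrays, Psme1 lies lower in MP, and array 2 carries the wild-type LSK mean of Psmc4.

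Whether the FoxO effect differed between MP and LSK was tested as an interaction. On all arrays 0 of 48 members passed, against 0.859% of all genes, with 1 at an unadjusted p under 0.05 (limma). For that unadjusted threshold the share of all genes is not given here. Without array 2 Psmc4 passed, with -0.88 ± 0.18 (adjusted p = 0.0409), where 1.62% of all genes passed with a negative difference; it had lain 0.64 higher in FoxO-deficient LSK and 0.25 lower in FoxO-deficient MP. Psmb8 and Psmb9 came next, with 0.67 ± 0.16 (adjusted p = 0.0654) and 0.68 ± 0.18 (adjusted p = 0.0886), and Psmb6 gave -0.33 ± 0.12 (adjusted p = 0.199). The Psmc4 call rests on its representative probe set. The second Psmc4 probe set read 520, 406 and 447 on wild-type and 453, 441 and 477 on FoxO-deficient MP arrays, with overlap. On LSK arrays without array 2 it read 320 and 248 against 342, 355 and 327, without overlap. It was not tested without array 2. On all arrays the largest positive differences were those of Psma8 (0.79), Psmc3ip (0.76) and Psmd5 (0.50), and the largest negative ones those of Psmb2 (-1.03), Psmd9 (-0.78) and Psmb6 (-0.69). None of these 6 passed with array 2 or without it. Without array 2 the Psmb2 value turned to 0.35 and that of Psmc3ip was 0.13, while Psma8, Psmd5 and Psmd9 gave 0.68, 0.36 and -0.73. The Psmb9 effect in MP was therefore not shown to differ from that in LSK.

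Of the 49 genes, 27 had more than 1 probe set. The 48 other kept probe sets of 24 members had the sign of the representative one in 39 of 48 cases in wild-type cells and in 36 of 48 in FoxO-deficient cells. In the FoxO comparisons the counts were 28 of 48 in MP and 21 of 48 in LSK. Several of these other probe sets read near the background limit, where the sign of a difference is uncertain. Psme4 was contradicted by another of its probe sets, which read 86.6, 195 and 65.2 on wild-type LSK, 66, 54.2 and 65.8 on wild-type MP and 24.8, 42.5 and 35.1 on FoxO-deficient MP arrays, and so was lowest where the representative was highest. Another Psmd9 probe set read 30.4, 28.1 and 33.3 on FoxO-deficient LSK and 63.8, 66.2 and 52.9 on FoxO-deficient MP arrays, without overlap. The Psmd9 representative, used above, read 135, 133 and 127 and 143, 130 and 115 there, with overlap. In wild-type cells both rose, the other one from 17.7, 46.4 and 21.5 to 91.0, 90.7 and 88.2.

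Genes that act with the proteasome were taken from lists drawn up by textbook role. Of 14 measured partner and assembly genes, Uchl5, a deubiquitinase of the base, and Rad23b, a shuttle for ubiquitinated proteins, rose in wild-type MP and 0 fell; Ubqln4 also rose with array 2 left out. In FoxO-deficient MP, Zfand5, a zinc finger protein that stimulates the proteasome, was the partner that changed on all arrays. It read 2879.6, 2869 and 2865 on wild-type and 523, 475 and 461 on FoxO-deficient MP arrays, a fall of 2.56 ± 0.13 (SE; adjusted p = 4.93e-06). Its relative Zfand2a read 187, 170.1 and 156 and 41.2, 55.7 and 64.5, a fall of 1.69 ± 0.17 that passed with array 2 left out (adjusted p = 0.0009; 0.204 with it). On LSK arrays Zfand5 read 3428, 3787 and 3489 in wild type and 3397, 3148 and 3433 in FoxO-deficient cells, with overlap, and the difference between the 2 FoxO effects passed (-2.46 ± 0.18, adjusted p = 0.00017). Of 7 measured regulators of proteasome transcription, Bach1 and Mafk, a repressor and a small Maf protein at antioxidant response elements, fell in wild-type MP, by 0.87 (adjusted p = 0.000951) and 1.06 (adjusted p = 0.00439), and 0 rose; with array 2 left out Nfe2l1 also fell and Nfe2l2 rose. Mafk also fell in FoxO-deficient MP, from 197, 258 and 215 to 102, 64.5 and 97.1 (-1.37 ± 0.20, adjusted p = 0.00732). Of 8 genes for the p97 unfoldase and its cofactors, Vcp, the unfoldase itself, rose in wild-type MP (0.79 ± 0.22, adjusted p = 0.0291), and with array 2 left out Faf1 did too. Of the 6 ubiquitin and E1 genes listed, 1, Uba6, was measured, and it passed in FoxO-deficient MP with array 2 left out.

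Genes regulated with the immunoproteasome were examined beside it. Of 11 measured genes of MHC class I presentation, H2-K1, H2-D1 and Nlrc5 fell and Canx rose in wild-type MP, and with array 2 left out Tap1 and Tapbp fell as well. Nlrc5, the transactivator of class I genes, read 738, 1774 and 1077 on wild-type LSK, 1077, 962 and 945 on FoxO-deficient LSK, 264, 318 and 293 on wild-type MP and 406, 496 and 391 on FoxO-deficient MP arrays. Tap1, whose promoter window overlaps that of Psmb9, read 133, 116 and 139 on wild-type and 178, 142 and 161 on FoxO-deficient MP arrays, and differed by 0.31 ± 0.36 (adjusted p = 0.846). Of 18 measured interferon response genes, 11 fell and 0 rose in wild-type MP, with a median of -1.07 (9 and -1.02 with array 2 left out). In FoxO-deficient MP, Oas2 rose and Irf1 fell on all arrays; with array 2 left out Ifi47, Igtp, Irgm1, Gbp2, Ifitm3 and Oas2 rose, beside Psmb9, and Irf1 fell. Igtp, an interferon-induced GTPase, read 52.6, 50.3 and 50.3 on wild-type and 149, 118 and 132 on FoxO-deficient MP arrays, and rose by 1.37 ± 0.13 (adjusted p = 0.000556) without array 2. Irf1, a transcription factor of the interferon response, read 323, 334 and 273 and 150.0, 155 and 147, a fall of 1.04 ± 0.15 (adjusted p = 0.00764) on all arrays. The MP comparisons by cell type and by genotype share the wild-type MP arrays, so a value that is low there enters both.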

How the data were processed

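The values are intensities on a linear scale, 1 per probe set and array, as deposited by the authors; the summarisation software is not named in the sources used here. Per the labels' protocols, RNA was prepared with the Qiagen RNeasy micro kit and amplified and biotin-labelled with the NuGEN Ovation system. The deposited array medians lay between 8 and 13.5, so log2(intensity + 0.6) was quantile normalized, 0.6 being the 10th percentile of all values. Probe sets had to exceed the 40th percentile on 3 or more arrays, and the brightest one left stood for its gene. Symbols came from the platform annotation and a RefSeq gene table (GRCm38.p6). The background limit of an array was the highest value among 27 control probe sets of low signal (5.14 to 13).

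Group means of all 12 arrays were fitted over 13732 genes with limma 3.58.1 in R 4.3.3 (lmFit, eBayes), with Benjamini-Hochberg adjustment over all genes, two-sided, called at adjusted p under 0.05. No fold is corrected for the offset, which lowers differences of dim genes. The number of arrays limits the precision. Exact permutation tests permuted arrays within genotype or cell type. Python 3.11.15 with pandas 2.3.3, numpy 2.4.6 and matplotlib 3.10.9 was used. The fit was tested on simulated data with changes placed in genes drawn from all those tested. For FoxO-deficient against wild-type MP it recovered 22 of 100 changes of 1 log2 unit and 46 of 100 of 2 log2 units. There were 3 false calls. The median standard error of the members was below that of all genes, so these shares are not those of the members. Named with values were members called in any comparison, the catalytic subunits, activators and the 3 largest rises and falls per comparison; the printed promoters and further values of interest were chosen after their values were seen. The members and lists were chosen with earlier results of these data known. Alternatives changed the normalization, offset, filter, probe set choice, weights, prior, arrays in the fit and each array in turn. The probe set of several symbols, Psmb11 in the tests, Ly6a and Adrm1 were not analysed here.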

Additional observations from a re-analysis of the deposited data

How the results depend on the processing

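Over the alternatives, 98 of 119 counts of called members stayed within 1.5 times the count on all arrays, and of the values of single members 850 kept their direction and side of the threshold, 99 kept only the direction, 17 newly passed and 17 changed sign. For FoxO-deficient against wild-type MP, where 0 members passed, array weights gave 2, a fit to the compared groups only gave 1, and leaving out 1 array gave 0 to 2. With 1 array left out, the difference of the FoxO effects gave 0 to 1 called members and the LSK comparison gave 0 in each case. For wild-type MP against LSK (18 called), median centring gave 30, array weights 33, the compared groups only 2 and leaving out 1 array 8 to 35. For the FoxO-deficient groups (11 called), median centring gave 21, an offset of 32 gave 19, array weights 30, a mean trend in the prior 18, the compared groups only 29 and leaving out 1 array 5 to 33. A combination chosen after seeing the data, median centring with array 2 left out, gave 1, 41 and 41 called members in MP, wild type and FoxO-deficient cells. For MP against LSK, calls over all genes are given above under median centring and with array 2 left out. For the other settings they are not given. These counts therefore show how the calls depend on the processing and are not a result about the members.

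The values that changed sign were as follows. Between wild-type MP and LSK, median centring gave 0.058 for Psmb8, 0.15 for Psmb9 and 0.25 for Psmb10, centring on the 75th percentile gave 0.080 for Psmb10, and the mean of the probe sets gave 0.73 for Psmb8, whose second probe set lay near background. Leaving out 1 array gave -0.56 to 0.17 for Psmb9 and -0.40 to 0.26 for Psmb10. Psme1 between FoxO-deficient MP and LSK was 0.042 under median centring, with array 2 or without it. Psmc4 in FoxO-deficient LSK was -0.069 with centring on the 75th percentile and -0.34 to 0.64 when 1 array was left out, and its difference of FoxO effects ran from -0.88 to 0.089. The cause was not tested, beyond the place of array 2. No paired analysis was possible because the array numbers in the titles run from 1 to 12 and no number is shared between groups.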
